A study of Danio rerio with 4 samples.

Results

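The 7 genes CD81, MCAM, ESAM, plvapb, tek, GPR182 and she encode proteins of the endothelial surface and 1 signalling adaptor. They were taken from 32434 Ensembl gene rows of a count table, 5 of them by identifier and MCAM and GPR182 by symbol. They had been chosen with their ventral and dorsal counts known, so their own ventral against dorsal differences are given as a description, with errors and no test. The question here was which of them differed between the sides by more than endothelial genes did in general. RNA came from zebrafish at 24 hours post fertilization of the line Tg(fli1:gal4;uasKaede), in which the endothelial gene fli1 drives Kaede, whose fluorescence light switches from green to red. Red cells were sorted after light had been given to the ventral side (2 libraries) or the dorsal side (2 libraries) of the posterior cardinal vein, which drains the trunk of the embryo, with 6 embryos per group. All 4 libraries carry the same transgenes, and the labels do not say whether the libraries of a side came from separate pools of embryos. The spread between libraries may therefore be technical.

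Endothelial cells line all vessels and meet the blood with a surface of adhesion proteins, receptors and organising proteins. MCAM and ESAM are adhesion molecules of the immunoglobulin family, the second of them placed at cell junctions. PLVAP, the product of plvapb, forms the diaphragms that close endothelial pores and caveolae. TEK, also called Tie2, is the receptor tyrosine kinase for the angiopoietins, and GPR182 is a G protein coupled receptor found in endothelium. She is an SH2-domain adaptor, a protein that links phosphorylated receptors to partners inside the cell. CD81 is a tetraspanin, a membrane protein that gathers partners into patches and is made by many cell types besides endothelium.

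The depth was 108405 and 79527 gene counts for ventral libraries 1 and 2, against 115876 and 51376 for dorsal libraries 1 and 2. Levels are given as CPM, counts per 1000000 gene counts. CEL-Seq, the method used, counts 1 tag at the 3′ end of each molecule, so no length scaling was applied. The shared endothelial level was read from the summed counts of 34 other endothelial genes, none of them among the 7, of which 26 had a count. This sum was 0.0570% to 0.158% of gene counts, so the defining endothelial transcripts were a small part of each library. The junction gene cdh5 gave 2 and 1 counts ventrally against 4 and 0 dorsally, and pecam1a gave 7 and 5 counts ventrally against 2 and 1 dorsally. The 15 erythroid genes of a marker list summed to 12306 and 11845 CPM in the ventral and 16526 and 13353 CPM in the dorsal libraries, led by the anion exchanger gene SLC4A1 at 238 and 184 against 346 and 148 counts. Fewer endothelial cells and less endothelial RNA per cell cannot be told apart in such samples.

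The endothelial sum stood at 1577 and 1471 CPM on the ventral side, against 570 and 642 CPM on the dorsal side. The sides did not overlap. The log2 fold of the sum, ventral over dorsal, was 1.34 ± 0.20 (SE) in edgeR's quasi-likelihood fit, a fold of 2.53. This is the rise that the 7 genes are set against. It was not uniform over the 34 genes of the sum, 10 of which had both ventral levels above both dorsal levels. The most counted were a row of CLDN5 (44 ventral and 15 dorsal counts), DUSP5 (34 and 8) and etsrp (32 and 9). Rarer genes went both ways, with aplnra at 9 ventral and 0 dorsal counts, nrp1b, ramp2 and vwf at 3 and 3, and ecscr at 1 and 3. Against gene counts alone, all 7 genes had both ventral levels above both dorsal levels, as had 19.4% of the 1399 genes abundant enough for edgeR's test and 19.8% of the 6208 genes with at least 5 counts. In the test across all 1399 genes, 6 genes, or 0.429%, passed as higher in ventral libraries at an adjusted p under 0.05, and CD81 was the only one of the 7 among them. Since the genes were chosen on this contrast, nothing is read from these counts. The edgeR fit held 5 of the 7 genes, because tek and ESAM fell below its expression filter.

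**Figure D1:**
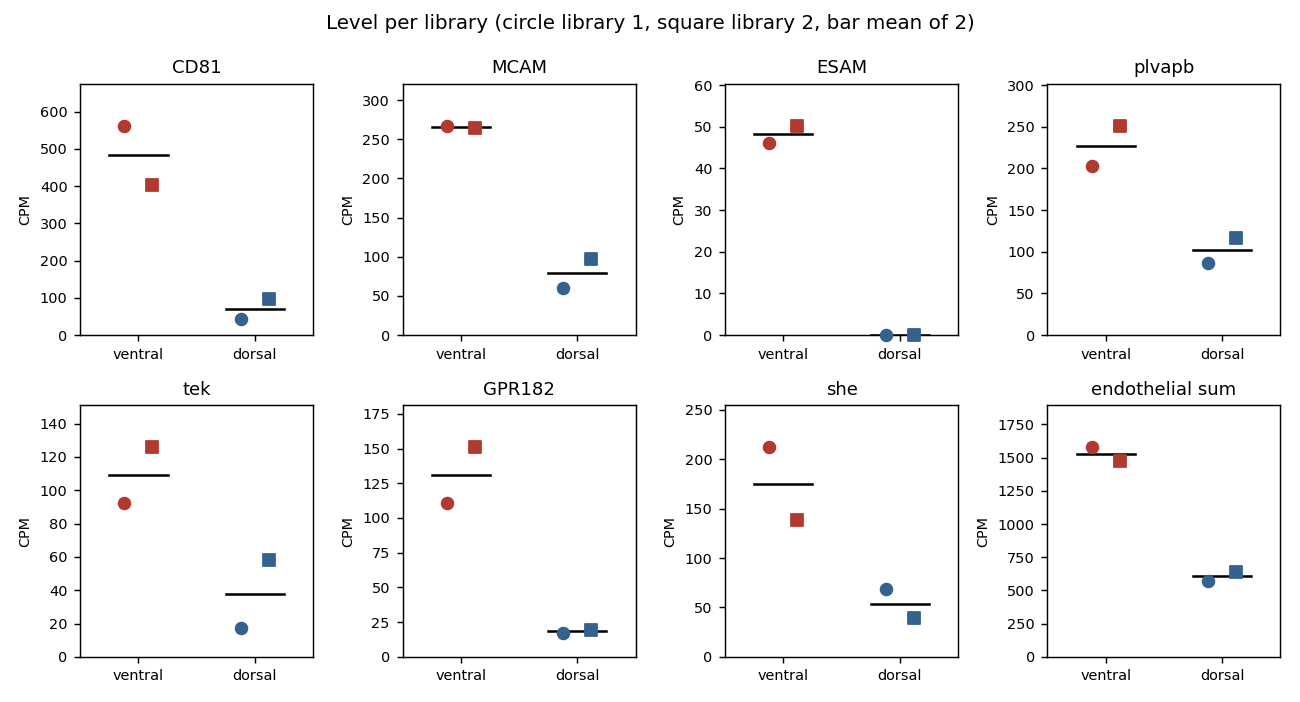
Level in CPM (counts per 1000000 gene counts) of each of the 7 genes and of the endothelial sum in the 2 ventral (red) and 2 dorsal (blue) libraries, with circles for library 1, squares for library 2 and bars for the mean. Each vertical axis starts at 0, and in every panel both ventral points lie above both dorsal points, with ESAM at 0 in both dorsal libraries.

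CD81 (ENSDARG00000036080) was the most abundant of the 7. It was counted 61 and 32 times ventrally and 5 and 5 times dorsally, which is 563 and 402 CPM against 43.1 and 97.3 CPM. The lower ventral level was thus several times the higher dorsal one. The mean was 483 ± 113 CPM in ventral and 70.2 ± 38.3 CPM in dorsal libraries (SD, n = 2 each). The log2 fold of CD81 was 2.96 ± 0.46 (SE). Per 100 counts of the endothelial sum, CD81 gave 35.7 and 27.4 counts in the ventral and 7.58 and 15.2 in the dorsal libraries, and here too the sides did not overlap. Relative to the endothelial sum CD81 was therefore 3.2-fold higher in ventral libraries, with an exact conditional 95% interval of 1.58 to 7.15 that covers counting error only. In edgeR's fit, its log2 fold exceeded that of the sum by 1.62 ± 0.50 (SE), an interval of 0.63 to 2.62 (2 SE). Here and below, the errors of gene and sum were combined as if independent and rest on 2 libraries a side. These errors borrow information on spread from all genes fitted, so they do not show each gene's own spread alone. In DESeq2 the SE of the log2 fold of CD81 was 0.74, against 0.46 in edgeR, so the interval depends on the method. As CD81 was chosen on this contrast, the interval is a description and no test.

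A second gene row with the symbol CD81 (ENSDARG00000022437) gave 1 count in all, in dorsal library 1. The CD81 signal thus came from 1 of the 2 rows of that symbol. Reads that fit both rows cannot be traced in the table.

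MCAM (ENSDARG00000005368) gave 29 and 21 counts in the ventral libraries, against 7 and 5 counts in the dorsal pair. Its levels were 268 and 264 CPM in ventral libraries, nearly equal, and 60.4 and 97.3 CPM in dorsal libraries. The log2 fold was 1.86 ± 0.45 (SE). Per 100 endothelial counts MCAM gave 17.0 and 17.9 on the ventral side, against 10.6 and 15.2 on the dorsal side, without overlap. Relative to the endothelial sum MCAM stood at a ratio of 1.43 (0.715 to 3.08), and its log2 fold exceeded that of the sum by 0.52 ± 0.49 (SE). An excess over the endothelial rise was not resolved for MCAM, and one of up to 3.08-fold lies within the counting interval. The related gene mcama was not seen in any library, and a count of 0 allows a level of up to 8.45 CPM given the 355184 gene counts of the series.

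ESAM (ENSDARG00000077039) was the rarest of the 7, with 5 and 4 counts in the ventral libraries, against 0 and 0 counts in the dorsal pair. The ventral levels were 46.1 and 50.3 CPM, and 0 dorsal counts allow up to 17.9 CPM. Set against this floor, 3 counts for both dorsal libraries together, and without error on the ventral counts, ESAM was at least 1.03-fold higher than the endothelial sum would give. The lower counting limit of the same ratio, with no floor, was 0.664. At this depth ESAM could not be told apart from the endothelial rise. Its relative esamb had 0 counts in all libraries.

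The diaphragm gene plvapb (ENSDARG00000045003) gave 22 and 20 counts in the ventral libraries, against 10 and 6 counts in the dorsal pair. Its levels were 203 and 251 CPM in ventral and 86.3 and 117 CPM in dorsal libraries, the highest dorsal mean of the 7 at 102 ± 21.6 CPM (SD, n = 2). The log2 fold was 1.22 ± 0.44 (SE), just below that of the endothelial sum, the difference being -0.12 ± 0.48. Per 100 endothelial counts plvapb gave 12.9 and 17.1 on the ventral side, against 15.2 and 18.2 on the dorsal side, and these overlapped. The ratio relative to the sum was 0.902, with an interval of 0.472 to 1.8. The related plvapa had 0 counts in all libraries.

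Both receptors had few counts. The angiopoietin receptor gene tek (ENSDARG00000028663) gave 10 and 10 counts ventrally against 2 and 3 dorsally, or 92.2 and 126 CPM against 17.3 and 58.4 CPM. Per 100 endothelial counts tek gave 5.85 and 8.55 on the ventral side, against 3.03 and 9.09 on the dorsal side, and the sides overlapped. The ratio of tek relative to the sum was 1.38 (0.483 to 4.81). GPR182 (ENSDARG00000036616) gave 12 and 12 counts ventrally against 2 and 1 dorsally, or 111 and 151 CPM against 17.3 and 19.5 CPM. Its log2 fold was 2.77 ± 0.75 (SE). Per 100 endothelial counts GPR182 gave 7.02 and 10.3 on the ventral side, against 3.03 and 3.03 on the dorsal side, without overlap. The ratio relative to the sum was 2.75, close to that of CD81, but its interval of 0.807 to 14.6 reached below 1, as 3 dorsal counts allow. The difference of its log2 fold from that of the sum was 1.43 ± 0.78 (SE), an interval of -0.12 to 2.99 (2 SE).

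The adaptor gene she (ENSDARG00000087956) gave 23 and 11 counts in the ventral libraries, against 8 and 2 counts in the dorsal pair. Its levels were 212 and 138 CPM in ventral and 69.0 and 38.9 CPM in dorsal libraries. The log2 fold was 1.6 ± 0.54 (SE), which exceeded that of the sum by 0.26 ± 0.58. Per 100 endothelial counts she gave 13.5 and 9.40 on the ventral side, against 12.1 and 6.06 on the dorsal side, and the sides overlapped. The ratio relative to the sum was 1.17 (0.540 to 2.75). In ventral libraries she and CD81 were higher in library 1, while plvapb, tek and GPR182 were higher in library 2. Every ratio of ventral library 1 to ventral library 2 had a counting interval that included 1.

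Set against the endothelial sum, 6 of the 7 ratios lay above 1 with ESAM at its bound, and CD81 was the only gene whose counting interval lay wholly above 1, as did that of 0.715% of the 1399 genes. Of the 5 genes fitted, 4 had a log2 fold above that of the sum, as had 4.5% of the 1399 genes. The genes were chosen on this contrast, and nothing is read from these shares. Without CD81, the other 6 genes together gave 179 ventral and 46 dorsal counts, a ratio relative to the endothelial sum of 1.34 with an interval of 0.886 to 2.04.

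**Figure D2:**
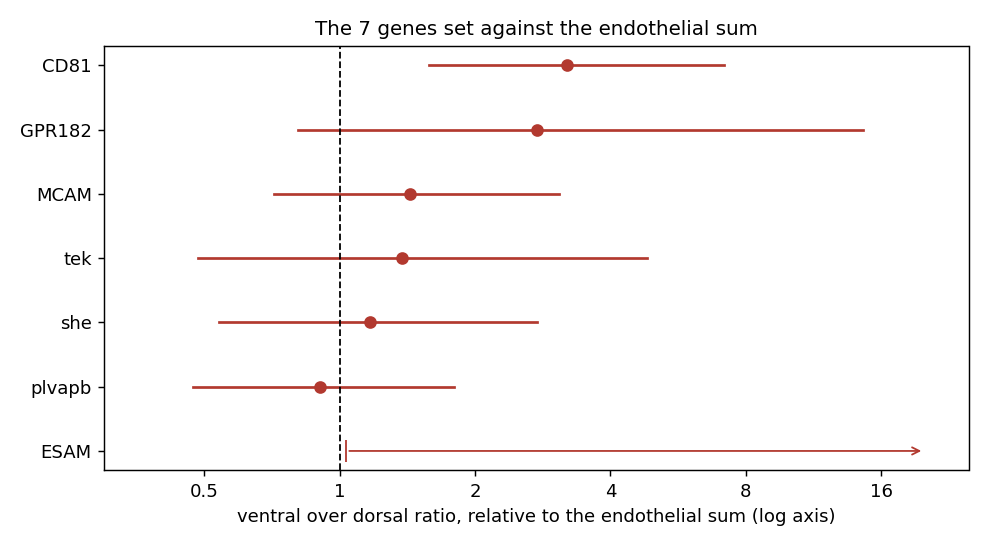
Ratio of ventral to dorsal counts of each gene divided by the same ratio of the endothelial sum, on a log axis, with exact conditional 95% intervals as lines and no excess at the dashed line. The CD81 interval (1.58 to 7.15) lies above 1, the intervals of GPR182, MCAM, tek, she and plvapb include 1, and ESAM is drawn as an arrow from its bound of 1.03.

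Single libraries moved several of these ratios. CD81 relative to the endothelial sum ranged from 2.13 to 4.26 as each library was left out, GPR182 from 2.32 to 3.38 and MCAM from 1.15 to 1.64, all above 1. Those of tek (0.764 to 2.29), she (0.931 to 1.95) and plvapb (0.796 to 1.06) fell on both sides of 1. The bound of ESAM held above 1 in 1 of these settings, at 1.13 without ventral library 1. It was 0.965 without ventral library 2, 0.344 without dorsal library 1 and 0.688 without dorsal library 2, where the floor of 3 counts stood for a single dorsal library. The lowest CD81 ratio, 2.13, came without dorsal library 1, where its counting interval began at 0.793 and included 1. Without ventral library 1 the CD81 ratio was 2.71, with an interval from 1.22. The log2 fold of CD81 itself stood at 2.18 without dorsal library 1 and at 3.59 without dorsal library 2. The ratio of tek was 0.764 without dorsal library 1 and 2.29 without dorsal library 2, and that of she was 1.95 without dorsal library 1. The call of CD81 in edgeR's test also ended without dorsal library 1 when the 1399 genes were kept, but held when the expression filter was applied again to the other 3 libraries. It ended with DESeq2 and with scaling to the ERCC spike-ins.

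**Figure D3:**
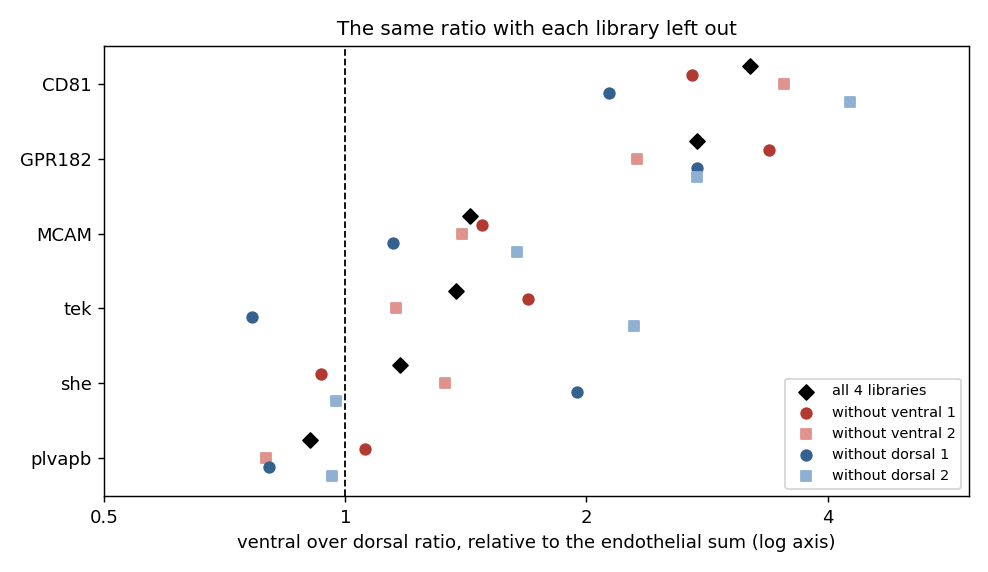
The ratio relative to the endothelial sum, on a log axis, with all 4 libraries (black) and with each library left out in turn (red and pink without a ventral library, blue and light blue without a dorsal one). CD81, GPR182 and MCAM stay right of the dashed line at 1, whereas tek, she and plvapb cross it; ESAM, with 0 dorsal counts, is not drawn.

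The order of the genes by level differed between the sides. In ventral libraries the means ran from CD81 at 483 CPM to MCAM (266), plvapb (227), she (175), GPR182 (131), tek (109) and ESAM (48.2). Of these neighbours, plvapb and she, she and GPR182, and GPR182 and tek overlapped between libraries, while the others did not. In dorsal libraries plvapb led at 102 CPM, followed by MCAM (78.9), CD81 (70.2), she (54.0), tek (37.8), GPR182 (18.4) and ESAM (0). There, every pair of neighbours except GPR182 and ESAM overlapped. Together the 7 genes gave 328 counts, against 387 for the 34 genes of the endothelial sum. CD81 and MCAM had more counts in all than any gene of that sum, whose most counted gene was CLDN5 (ENSDARG00000014059), a tight junction protein, with 59.

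**Figure D4:**
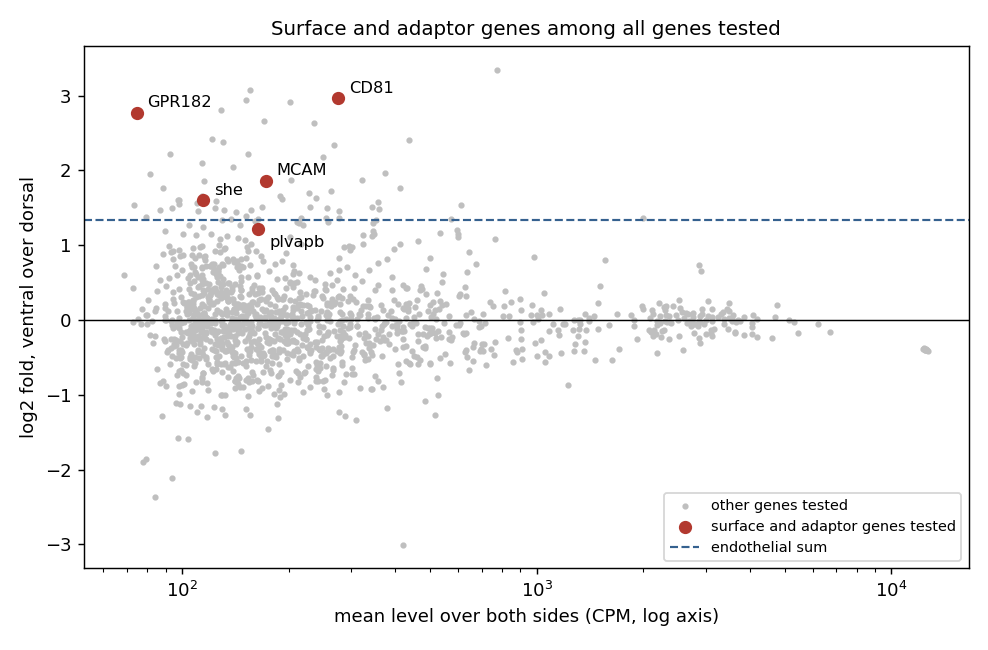
Log2 fold, ventral over dorsal, against the mean level in CPM (log axis) for the 1399 genes fitted (grey) and the 5 surface and adaptor genes among them (red), with the endothelial sum as a dashed line at 1.34. CD81, GPR182, MCAM and she lie above the line and plvapb (1.22) just below it.

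Markers of some other cell types also stood higher in ventral libraries. The 16 epidermal genes matched summed to 4022 and 1584 CPM in ventral and 759 and 1246 CPM in dorsal libraries, and 14 of them had a count. The most counted of them, the keratin gene krt8, gave 86 and 38 counts ventrally against 23 and 9 dorsally, and its partner krt18a.1 gave 69 and 31 against 21 and 4. Both were thus higher in each ventral library than in either dorsal one. The keratin genes krt4 (58 counts) and cyt1l (65 counts) were counted in ventral library 1 alone, while icn gave 11 and 8 counts ventrally against 15 and 10 dorsally. The ratio of the epidermal sum was 3.29, and 1.74 without ventral library 1. The 19 mural and mesenchymal genes, 10 with a count, summed to 1356 and 817 CPM in ventral and 440 and 253 CPM in dorsal libraries, led by TAGLN, an actin-binding protein, at 59 and 52 against 19 and 7 counts. TAGLN was among the 6 genes that passed (adjusted p = 0.0183, edgeR). The next most counted, COL1A1 (23 and 1 against 8 and 2) and twist1b (26 and 0 against 0 and 1), had nearly all ventral counts in ventral library 1. In all libraries acta2, MYH11, CSPG4 and PDGFRA had 0 counts. The 17 endodermal, kidney and notochord genes, 7 with a count, summed to 129 and 88.0 CPM in ventral and 17.3 and 19.5 CPM in dorsal libraries, led by the ion pump gene atp1a1a.4 at 4 and 2 against 0 and 0 counts. The ratio of the mural and mesenchymal sum was 2.95, with 2.14 without ventral library 1 and 4.46 without dorsal library 1. The part of the epidermal, mural, mesenchymal and endodermal genes in these results was not tested. Neural genes summed to 221 and 201 CPM in ventral and 164 and 97.3 CPM in dorsal libraries, led by the tubulin gene tubb5 at 13 and 8 against 14 and 4 counts. Muscle genes summed to 55.3 and 37.7 CPM in ventral and 25.9 and 136 CPM in dorsal libraries, led by a row of the actin gene ACTA1 at 2 and 1 against 1 and 1 counts. Myeloid genes summed to 397 and 239 CPM in ventral and 94.9 and 954 CPM in dorsal libraries. Their most counted gene, the transcription factor CEBPB, gave 16 and 8 counts ventrally against 8 and 14 dorsally, and lyz, which encodes lysozyme, gave 17 counts in dorsal library 2. The muscle ratio was 0.801, with 0.351 without dorsal library 1 and 1.85 without dorsal library 2, and the myeloid ratio was 0.920, with 0.346 and 3.48. Venous and lymphatic genes summed to 646 and 880 CPM in ventral and 181 and 292 CPM in dorsal libraries, with stab2, a scavenger receptor, at 33 and 30 counts ventrally against 1 and 6 dorsally, a log2 fold of 2.91 ± 0.70 (SE) that did not pass (adjusted p = 0.119, edgeR).

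Genes related to the 7 by family or pathway were read from 8 lists, 148 genes in all, with the 7 left out. Only 9 of these genes were abundant enough for the test, and 0 of them passed in either direction in edgeR's test. At an unadjusted p under 0.05, edgeR had 5 of them higher and 1 lower in ventral libraries, against 7.51% higher and 4.65% lower of all 1399 genes, and DESeq2 had 0 of each. The median log2 fold of the 9 was 0.84, against -0.03 over all 1399 genes. The lists were chosen with earlier results of these data known, and CLDN5 among the 9 is also in the endothelial sum. The expression filter also keeps genes that are abundant on 1 side only. Nothing is therefore read from this median or from the unadjusted shares.

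Other tetraspanins had similar levels on the 2 sides as a sum, while single rows went both ways. The 33 other tetraspanin rows, 20 with a count, summed to 987 and 1044 CPM in ventral and 984 and 779 CPM in dorsal libraries, a ratio of 1.1 (0.883 to 1.37). TSPAN14 stood at 0.05 ± 0.33 on the log2 scale (SE; edgeR adjusted p = 0.9996). TSPAN2 stood at -0.82 ± 0.33 (adjusted p = 0.346) and CD63, a tetraspanin of late endosomes, at 1.76 ± 0.64 (adjusted p = 0.302). The sum rests most on TSPAN14, with 25 and 21 counts ventrally against 28 and 12 dorsally, and TSPAN2, with 20 and 13 against 36 and 16. Among rarer rows, cd9a gave 3 and 6 counts ventrally against 1 and 0 dorsally and cd9b 3 and 3 against 0 and 0. A row of TSPAN3 went the other way, with 1 and 1 against 3 and 1. Among partners of tetraspanins, which include integrins and the ERM proteins that tie the membrane to actin, MSN (moesin) was the single gene tested. It gave 150 and 90 counts ventrally against 72 and 41 dorsally, 0.84 ± 0.23 on the log2 scale (SE; edgeR adjusted p = 0.159). EZR (ezrin) gave 9 and 3 counts in its more counted row against 7 and 4 dorsally, and the integrin gene ITGA5 gave 6 and 4 against 2 and 0.

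Relatives of MCAM and the laminins, basement membrane proteins, had few counts and none was tested. Their 12 rows gave 40 and 11 counts ventrally against 8 and 1 dorsally, a ratio of 5.04 (2.46 to 11.7). The ratio was 13.9 without dorsal library 1. Without ventral library 1 it was 2.57, with an interval that began at 0.968 and included 1. The laminin receptor gene bcam was the most counted, with 18 and 8 counts ventrally against 2 and 0 dorsally, a ratio of 11.6 (2.90 to 101). The laminin chain gene lama4 gave 6 and 1 ventral counts and ALCAM 5 and 1, with 0 dorsal counts for both. Its relative alcamb, with as many counts in all as ALCAM, had too few to resolve whether it rose or not. It gave 2 and 1 counts ventrally against 3 and 0 dorsally, a ratio of 0.890 (0.119 to 6.64). Each of these genes had more counts in ventral library 1 than in ventral library 2.

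Junction genes, the setting of ESAM, summed to 1273 and 931 CPM in ventral and 552 and 409 CPM in dorsal libraries over 23 rows, a ratio of 2.22 (1.72 to 2.89). Both rows of CLDN5, pecam1a, rasip1 and cdh5 are also in the endothelial sum, so the 2 sums are not separate. The more counted row of CLDN5 gave 32 and 12 against 12 and 3 counts, with 1.39 ± 0.50 as log2 fold (SE, adjusted p = 0.302, edgeR). JAM3, a junction adhesion molecule of the same broad family as ESAM, gave 28 and 16 against 9 and 6, at 1.35 ± 0.45 (adjusted p = 0.262). The plakoglobin gene JUP stood at 0.19 ± 0.53 (adjusted p = 0.984). None of the 3 passed.

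Genes of caveolae and diaphragms, the setting of plvapb, gave 24 and 18 counts ventrally against 20 and 2 dorsally over 14 rows, a ratio of 1.70 (0.991 to 2.99), and 5.74 without dorsal library 1. The more counted row of CAVIN2, a coat protein of caveolae, gave 18 and 11 against 8 and 1, 1.55 ± 0.60 on the log2 scale (SE; edgeR adjusted p = 0.323). PACSIN2, which shapes membranes, gave 2 and 4 counts ventrally against 12 and 1 dorsally, a ratio of 0.411 (0.128 to 1.16) that turned to 1.64 without dorsal library 1.

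Around tek, 12 rows of Tie signalling gave 20 and 12 counts ventrally against 7 and 5 dorsally, a ratio of 2.37 (1.19 to 5.06). Of these, TIE1 is also in the endothelial sum. TIE1, the sister receptor of TEK, gave 8 and 1 counts against 1 and 1 dorsally, a ratio of 4.0 (0.829 to 38.1), or 1.05 without ventral library 1, and the ligand genes ANGPT1 and ANGPT2 had 0 counts in all libraries. The adaptor gene SHC1 gave 5 and 8 counts against 1 and 2 dorsally, a ratio of 3.86 (1.06 to 21.1), or 1.78 without dorsal library 1, and PIK3R1, a subunit of PI3-kinase, gave 2 and 1 against 5 and 2, a ratio of 0.381 (0.0636 to 1.67).

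Other vascular G protein coupled receptors and their ligands, the family setting of GPR182, gave 55 and 61 counts ventrally against 25 and 19 dorsally over 25 rows, a ratio of 2.35 (1.65 to 3.40). Several of them are also in the endothelial sum, among them aplnrb and calcrla. The apelin receptor gene aplnrb gave 4 and 16 against 5 and 2, a ratio of 2.54 (1.03 to 7.12) that turned to 0.882 without ventral library 2. The receptor gene calcrla, which binds adrenomedullin together with RAMP proteins, gave 10 and 7 against 3 and 2, a ratio of 3.03 (1.07 to 10.5). The chemokine gene CXCL12 gave 9 and 7 against 2 and 0, a ratio of 7.12 (1.67 to 63.8).

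SH2 and related adaptors, the setting of she, had summed levels that did not differ between the sides beyond counting error. Their 14 rows summed to 683 and 553 CPM in ventral and 811 and 564 CPM in dorsal libraries, a ratio of 0.854 (0.658 to 1.11), and 1.11 without dorsal library 1. GAB1, a docking protein for growth factor receptors, was the single gene tested, at -0.52 ± 0.30 on the log2 scale (SE; edgeR adjusted p = 0.570). CRK gave 11 and 4 counts ventrally against 14 and 4 dorsally, and NCK1 gave 10 and 8 against 11 and 1. The relative SHD gave 1 count in all, in dorsal library 1.

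**Figure D5:**
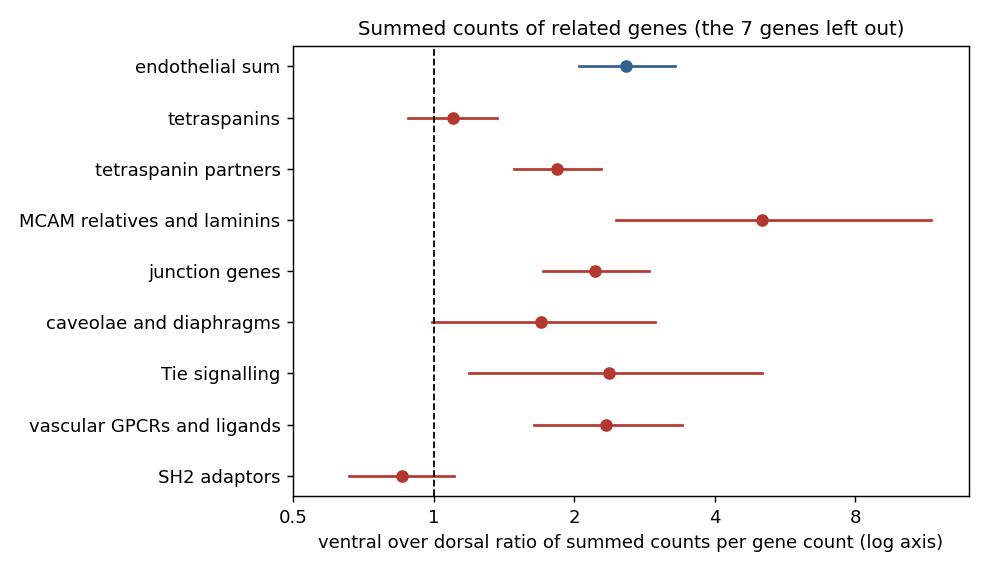
Ratio of ventral to dorsal summed counts per gene count, on a log axis with counting intervals as lines, for the endothelial sum (blue) and the 8 lists of related genes without the 7 (red). Tetraspanins (1.1) and SH2 adaptors (0.854) lie at or near the dashed line at 1, and MCAM relatives and laminins (5.04) lie farthest right with a wide interval. The junction, Tie signalling, caveola and G protein coupled receptor lists share genes with the endothelial sum.

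For 6 of the 7 genes, all but ESAM, the genes with the most similar patterns over the 4 libraries were sought. The pool was 2423 genes with a mean of at least 5 counts. Likeness was the Euclidean distance between log2 CPM values with a prior count of 2, each gene centred on its own mean. Differences in level thus did not count, and the prior count draws folds of genes with few counts toward 0. Nearest to CD81 were PLK2 (distance 0.567), LFNG (0.709) and atp2b4 (0.854), against a median distance of 2.69. PLK2 is a kinase, LFNG a modifier of Notch receptors and atp2b4 a calcium pump of the plasma membrane. Nearest to MCAM were DUSP6, a phosphatase of ERK, at 0.0819, JUNB, an AP-1 transcription factor, at 0.204 and PLD3 at 0.299. Nearest to GPR182 were the actin-binding genes CNN2 (0.175) and TAGLN (0.241) and the hairy-related her12 (0.338). For plvapb they were lmo4a, ZFP36L2 and SNRNP27 at 0.0546 to 0.191, for tek PDE4B, HMGB3 and rac1a at 0.105 to 0.299, and for she JMJD1C, COL5A1 and RRP15 at 0.179 to 0.273. Among the 6 genes themselves, plvapb and tek lay closest (0.512) and CD81 and plvapb farthest apart (1.61). These distances rest on 4 libraries and few counts, and describe likeness only.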

How the data were processed

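Per the labels' protocols, RNA was isolated with TRIzol and ERCC spike-in RNAs and sequenced with CEL-Seq, with a barcode and a unique molecular identifier in each primer. CASAVA 1.8, Bowtie2 2.1.0, HTSeq 0.5.4p3 and the build Zv9 are listed by the submitters' processing notes without their roles. The authors deposited 1 table of whole-number counts, per gene (32434 rows) and spike-in (92 rows). No such value exceeded 1024, the number of identifiers of 5 bases, and the values were read as identifier counts, an inference. The 5 rows naming no gene held 96.4% to 97.4% of column totals and were left out.

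Symbols came from a table of Ensembl identifiers (20769 matched). The genes and lists were chosen with earlier results of these data known. Named beside the 7 were their relatives by symbol, the 3 most counted genes of each list of related genes, the 3 nearest patterns and, for lists of other cells, the most counted gene. The genes krt18a.1, krt4, cyt1l, icn, lyz, cdh5, pecam1a, rasip1, cd9a, cd9b and TSPAN3 were named after their values were seen. So were alcamb, tied with ALCAM in its list, and COL1A1, twist1b, acta2, MYH11, CSPG4 and PDGFRA. The same holds for DUSP5, etsrp, aplnra, nrp1b, ramp2, vwf and ecscr of the endothelial sum. Genes such as kdrl without a match are not analysed here. How strand was handled: not given in the sources used here.

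Counts were fitted with edgeR 4.0.16 in R 4.3.3 (TMM, filterByExpr, library sizes recomputed after the filter, a choice made after the calls with and without it were seen, quasi-likelihood F test, 2-sided, Benjamini-Hochberg), which was tested on simulated data; SE is the log2 fold over the root of F. The design has 2 residual degrees of freedom. Ratios carry exact 95% intervals for counting error only. Alternatives were RLE factors, ERCC totals, no filter, DESeq2 1.42.0, other endothelial sums and each library left out, with the 1399 genes kept.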

Additional observations from a re-analysis of the deposited data

How the results depend on the processing

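The count of genes higher in ventral libraries, 6 in edgeR's test, was 0 with DESeq2, 0 with ERCC totals and 43 without a filter, and 0 to 46 as each library was left out (0 without dorsal library 1, 46 without ventral library 2, 12 without ventral library 1). With library sizes kept from before the filter it was 7, and with the filter applied again to the 3 libraries left it was 9 to 87 (14 and 84 without ventral library 1 and 2, 9 and 87 without dorsal library 1 and 2), both chosen after seeing the data. At an unadjusted p under 0.05 DESeq2 had 51 higher and 7 lower and ERCC scaling 20 and 0. The count of lower genes, 0, was 4 without a filter, 1 to 5 as each library was left out, 7 to 14 with the filter applied again (7 and 7 without ventral library 1 and 2, 13 and 14 without dorsal library 1 and 2), and 1042 with the endothelial sum as library size, which moves the median log2 fold of all genes to -1.38 by construction. ERCC totals moved that median to 0.22. The log2 fold of the endothelial sum, 1.34 ± 0.20 (SE), was 1.65 ± 1.17 (SE) with ERCC totals, an error that leaves the rise unresolved under that scaling. Dorsal library 2 had 4.68 gene counts per ERCC count, against 12.5 in dorsal library 1 and 11.2 and 9.68 in ventral libraries 1 and 2. The log2 fold of the sum was 1.46 with venous and lymphatic genes added, and 1.12 to 1.55 as each library was left out. The number of the 7 genes above the sum, 6, was 4 to 6 as each library was left out. It was 5 with venous and lymphatic genes added, where the bound of ESAM was 0.946 and the ratio of CD81 was 2.93. It was 2 when each gene was set against the other 6, an alternative chosen after seeing the data. In that setting plvapb stood at 0.457, with an interval of 0.226 to 0.958 that lay wholly below 1. The other 6 genes were chosen on this contrast and include CD81, so nothing is read from that interval. Against the endothelial sum plvapb was at 0.902 (0.472 to 1.80). The number with an interval above the sum, 1, was 0 to 1 as each library was left out, with 0 without dorsal library 1. The 0 related genes called became 1 without a filter (bcam) and 0 to 1 as each library was left out (MSN without ventral library 2). It was 3 with the endothelial sum as library size, added after seeing the data, with TSPAN2, GAB1 and TSPAN14 lower among the 1042. Of 50 other log2 folds of the 5 fitted genes, 39 moved by less than the spread between libraries and 11 by more. The 11 include all 5 genes with the endothelial sum as library size, a shift by construction. They also include CD81 (2.18), MCAM (1.31), plvapb (0.81) and she (2.03) without dorsal library 1. The rest were MCAM without dorsal library 2 (2.25) and plvapb with ERCC totals (1.53). Where no value beside a change shows its cause, that cause was not tested. No paired analysis was run, because the labels state no pairing and give the libraries no shared replicate numbers. Dorsal counts of 0 to 16 per gene limit what this depth can resolve.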
